A study of Drosophila melanogaster with 596 samples.

Results

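The crosses compared here were selected on their own expression of antimicrobial peptide genes. For each of 596 crosses the mean of Drs and DptB was taken, and the 25% of crosses with the highest mean (the high crosses, 92 of pA1 by pB2 and 57 of pA2 by pB1) were set against the 25% with the lowest mean (the low crosses, 94 of pA1 by pB2 and 55 of pA2 by pB1), leaving 50% of the crosses in the middle. The choice rule lists 8 antimicrobial peptide genes, of which 2 have rows in the values used. Drs (CG10810, arm 3L) encodes Drosomycin, an antifungal peptide, and DptB (CG10794, arm 2R) encodes Diptericin B, a peptide active against bacteria. The other 6 genes, Mtk, DptA, AttA, AttC, CecA1 and Dro, were not analysed here.

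Every sample was a pool of about 300 heads of F1 females aged 3 to 5 days, grown on standard media under standard conditions, with no infection among the labelled treatments. The Drosophila Synthetic Population Resource is a set of recombinant inbred lines made from founder strains in 2 populations, A and B, each kept as replicate subpopulations. The mother of each cross came from population A and the father from population B, so that the daughters were trans-heterozygotes. The names pA1, pA2, pB1 and pB2 are those of the subpopulations. Each cross has 1 set of values here, although the methods describe 2 of the crosses as prepared a second time, so a value has no replicate error of its own, and the crosses of a group are different genotypes rather than repeats of 1 genotype.

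The values are scores with no physical unit. The authors had set each transcript to normal quantiles, taken residuals from subpopulation and from the first 10 principal components of expression, and then given those residuals a normal distribution once more. Each transcript therefore has a standard deviation between 0.983 and 1.007 over the crosses, and a difference of 1 is about 1 standard deviation of that transcript. Expression levels are not kept, so levels of different genes cannot be compared and the head label could not be checked against marker levels. A transcript whose order over the crosses was exactly that of the Drs and DptB mean would differ by 2.54 between high and low crosses, the ceiling for the differences below.

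Flies answer microbes with secreted peptides, most of which are made in the fat body, a tissue that also lines the head capsule and stores fat and glycogen. The Toll pathway, opened by a protease cascade that cuts the ligand Spätzle, acts through the NF-κB factors Dorsal and Dif and is the main inducer of Drs. The Imd pathway, opened by peptidoglycan recognition proteins (PGRPs), acts through the NF-κB factor Relish and is the main inducer of the diptericins.

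Drs, as a description of what chose the crosses, was at -0.0124 at the lowest, 1.13 at the median and 3.15 at the highest in high crosses, against -3.15, -1.10 and 0.303 in low crosses. DptB was at -0.299, 1.14 and 3.15 in high crosses, against -3.15, -1.09 and 0.204 in low crosses. The groups overlap slightly in each gene, since 1 high cross was below 0 in Drs and 1 in DptB, while 3 low crosses were above 0 in Drs and 2 in DptB. The mean of both genes was 0.663 just inside the high group and 0.660 just outside it, and -0.640 just inside the low group and -0.635 just outside it, so both borders run through a continuous range. One pA1 by pB2 cross held the highest value of all crosses, 3.15, in both genes.

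**Figure D1:**
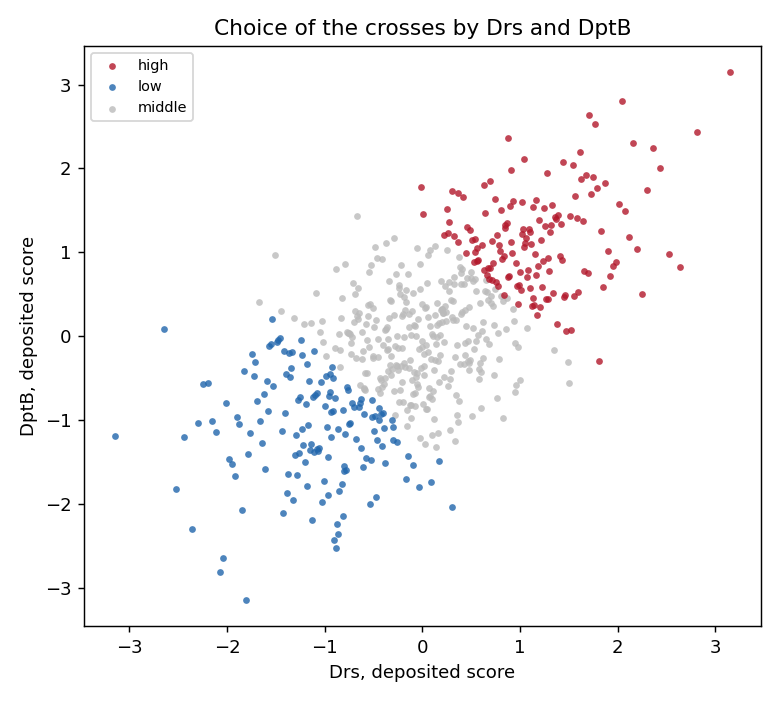
Deposited scores of Drs (horizontal) and DptB (vertical) in each of the 596 crosses, with the high crosses in red, the low crosses in blue and the middle crosses in grey. The groups are cut from 1 continuous cloud, and the correlation over all crosses is r = 0.672.

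Drs and DptB followed each other over the 596 crosses with r = 0.672 and rho = 0.668, which is given as a description over crosses that share founder haplotypes. The correlation was 0.702 within pA1 by pB2, and within pA2 by pB1 it was 0.622. There were 94 crosses among the highest 25% by both genes and 82 among the lowest 25% by both, and 6 crosses were among the highest by one gene and the lowest by the other. To give each gene a comparison that its own values did not choose, crosses were also chosen by the other gene alone. With crosses chosen by DptB, Drs had a median of 0.905 (range -1.51 to 3.15) in high crosses and -0.798 (range -3.15 to 0.827) in low crosses, a difference of 1.72 (SE 0.115, limma adjusted p = 7.99e-47). With crosses chosen by Drs, DptB had a median of 0.905 (range -0.976 to 3.15) in high crosses and -0.759 (range -3.15 to 1.43) in low crosses, a difference of 1.75 (SE 0.116, limma adjusted p = 3.72e-47). The choice by DptB called 12.4% of all transcripts and the choice by Drs called 6.18%, at an adjusted p under 0.05 over 11063 transcripts.

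Across the 11062 other transcripts, 631 were higher in high crosses (5.70%) and 555 were lower (5.02%) at a limma adjusted p under 0.05. With 1 transcript per gene, 495 of 7420 genes were higher (6.67%) and 443 were lower (5.97%), and the median difference over all genes was -0.02. A difference of at least 0.5 was reached by 1.90% of genes on the higher side and by 83 genes (1.12%) on the lower side. The standard error of a difference was 0.116 for every transcript, since limma shrank the variances of all transcripts to a common value. The limma p-values therefore do not use a gene's own spread within groups, which varied. For BaraA2 the standard deviation was 0.765 in high and 0.795 in low crosses, and for Hsc70-3 it was 1.15 and 0.912. A rank-sum test called 10.7% of transcripts, as did limma. Without the 10 crosses of highest mean, 4.28% of transcripts were higher and 3.31% lower. In all, 5.81% were called when blocks of 12 crosses in deposited order entered the fit. That order follows maternal line number, and no label ties these blocks to slides.

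The 3 largest differences were those of BaraA2, BaraA1 and BomS5, genes of secreted peptides of the Toll response. BaraA2 (CG18279, 2R), which encodes the precursor of the antifungal Baramicin A peptides, had scores of -1.20 at the lowest, 0.976 at the median and 3.15 at the highest in high crosses, against -3.15, -0.833 and 0.970 in low crosses. Of the high crosses, 99.3% lay above the median of the low crosses, although the ranges of the groups overlapped. The difference was 1.82 (adjusted p = 1.05e-51). BaraA1, a near-identical neighbouring copy, gave 1.81, and since the copies correlated at r = 0.999 over crosses their rows cannot be told apart.

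BomS5, a short Bomanin, one of a family of secreted peptides that Toll signalling induces, ranged over -1.25, 0.905 and 3.15 (lowest, median, highest) in high crosses, against -2.81, -0.699 and 0.990 in low crosses. Here 96% of the high crosses were above the low median, and the difference was 1.65 (adjusted p = 2.40e-42). Dso2, a Daisho peptide with a part in defence against filamentous fungi, showed the same separation, with medians of 0.983 in high crosses and -0.607 in low crosses and a difference of 1.53 (adjusted p = 1.31e-36). The tailed Bomanin BomT3 had medians of 0.617 in high crosses and -0.209 in low crosses and a smaller difference, 0.64 (adjusted p = 3.17e-06), with 71.8% of high crosses above the low median. BomS6 differed by 0.37 (adjusted p = 0.0220), and BaraB by 0.31, which did not pass (adjusted p = 0.0608).

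Of the 19 Bomanin, Daisho and Baramicin genes listed, 7 have rows. Of these, 6 were higher (85.7%, beside 6.67% of all genes) and none was lower (beside 5.97%), with a median difference of 1.53 beside -0.02 over all genes. Bbd (bombardier), a secreted protein needed for the action of short Bomanins, stood beside them at 1.42 (adjusted p = 2.36e-31), with medians of 0.839 in high crosses and -0.543 in low crosses. The Drosomycin-like gene Drsl5, the only other listed antimicrobial peptide gene with a row, had medians of 0.0705 in high crosses and 0.0456 in low crosses, and its difference of 0.13 did not pass (adjusted p = 0.508). It differs from the peptides above in that 51% of the high crosses were above the low median.

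**Figure D2:**
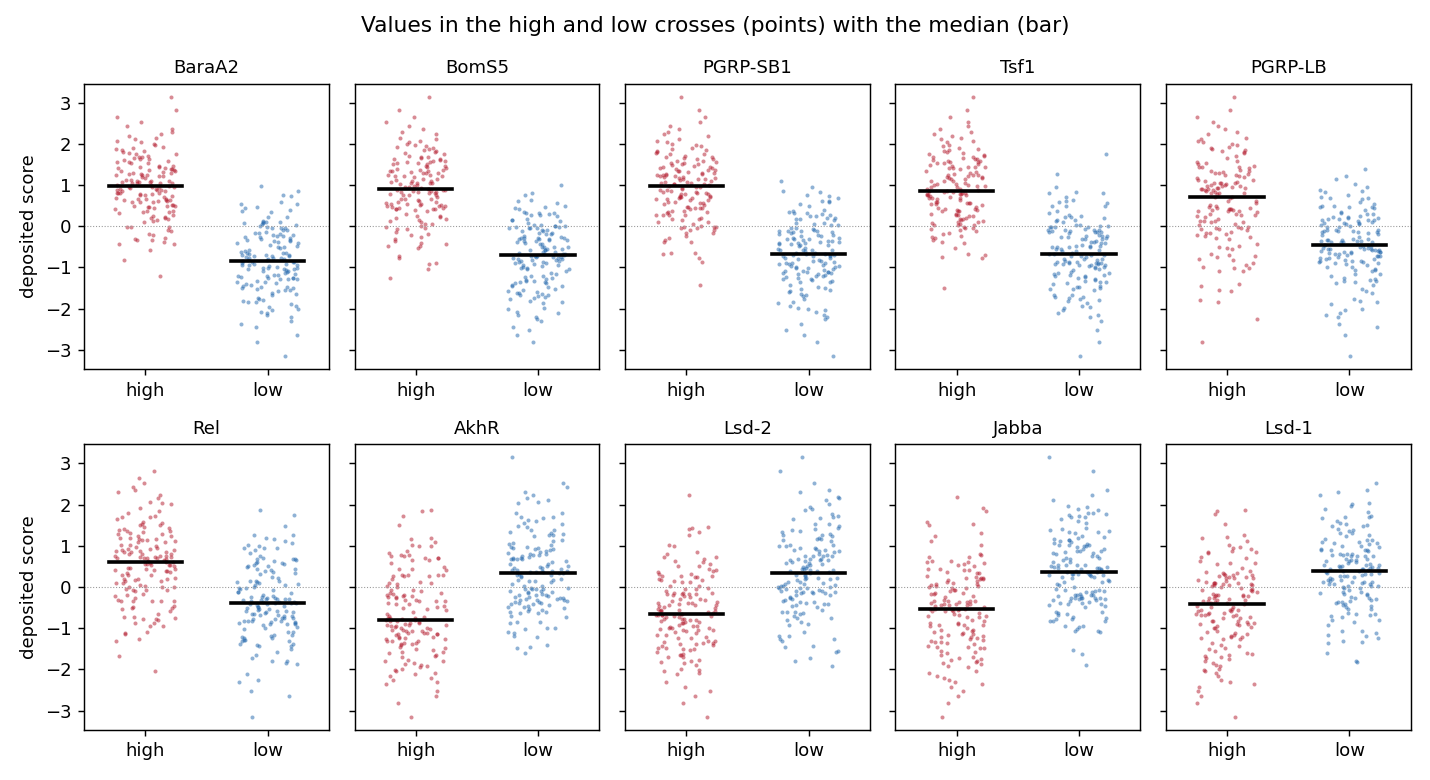
Deposited scores of 10 genes outside the choice rule in each high (left, red) and low (right, blue) cross, with the median of each group as a bar. For BaraA2 the medians are 0.976 in high crosses and -0.833 in low crosses, and for AkhR they are -0.804 in high crosses and 0.329 in low crosses, with overlapping ranges in every gene.

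Among the receptors, 9 of the 17 listed PGRP and GNBP genes have rows, of which 7 were higher (77.8%, beside 6.67% of all genes), none was lower and the median difference was 0.77. PGRP-SB1 (CG9681, 3L), a secreted enzyme that cleaves peptidoglycan, had scores of -1.43, 0.983 and 3.15 (lowest, median, highest) in high crosses, against -3.15, -0.663 and 1.10 in low crosses. The difference was 1.62 (adjusted p = 4.36e-41), and 97.3% of high crosses were above the low median. PGRP-SC2, another secreted amidase that removes peptidoglycan and so dampens Imd signalling, had medians of 0.957 in high crosses and -0.582 in low crosses, a difference of 1.45 (adjusted p = 8.20e-33).

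PGRP-LB, the amidase that limits the Imd response to circulating peptidoglycan, is given as 5 isoform rows with identical values. Its scores were -2.81, 0.699 and 3.15 (lowest, median, highest) in high crosses, against -3.15, -0.464 and 1.38 in low crosses, a difference of 1.05 (adjusted p = 8.04e-17). Its lower tail in high crosses is longer than that of PGRP-SB1, with 83.2% of high crosses above the low median. PGRP-LF, a membrane protein that blocks the Imd receptor, differed by 0.89 (adjusted p = 6.28e-12). PGRP-SA, the circulating sensor of Gram-positive peptidoglycan above Toll, differed by 0.77 (adjusted p = 6.23e-09).

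PGRP-LA differed by 0.50 (adjusted p = 0.000592) and PGRP-LE, an intracellular sensor, by 0.36 (adjusted p = 0.0239). GNBP2 and GNBP3, of the family that binds glucans, had differences of -0.10 (adjusted p = 0.648) and -0.19 (adjusted p = 0.299), which did not pass. No test compared the members of this list with each other.

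Within the Toll pathway, 13 of 19 listed genes have rows, and 7 were higher (53.8%, beside 6.67% of all genes), 6 did not pass and none was lower, with a median difference of 0.35. The largest were serpin and protease genes of the extracellular cascade. The serpin necrotic, nec, which holds the cascade in check, had medians of 0.678 in high crosses and -0.298 in low crosses, a difference of 0.95 (adjusted p = 7.15e-14). The protease gene Hayan differed by 0.90 (adjusted p = 3.65e-12), SPE, the protease that cuts Spätzle, by 0.69 (adjusted p = 3.26e-07), and the clip protease gene grass by 0.54 (adjusted p = 0.000161).

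Of the intracellular members, the NF-κB genes dl and Dif differed by 0.49 (adjusted p = 0.000745) and 0.41 (adjusted p = 0.00806), and cact, which encodes the inhibitor that holds both proteins in the cytoplasm, by 0.35 (adjusted p = 0.0293). The ligand gene spz (0.24, adjusted p = 0.168), the adaptor genes Myd88 (-0.07, adjusted p = 0.772) and tub (-0.20, adjusted p = 0.289) and the protease gene modSP (-0.20, adjusted p = 0.260) did not pass.

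Of the 17 genes of the Imd pathway list 14 have rows, and 1 was higher, 13 did not pass and the median difference was 0.01. The share that was higher, 7.14%, is near the 6.67% of all genes. The gene that passed was Rel (CG11992, 3R), which encodes Relish, the transcription factor at the end of the pathway. Its scores were -2.04, 0.612 and 2.81 (lowest, median, highest) in high crosses, against -3.15, -0.391 and 1.87 in low crosses, with a difference of 0.92 (adjusted p = 6.33e-13) and 83.9% of high crosses above the low median. The adaptor gene imd was at -0.04 (adjusted p = 0.878), Dredd, the caspase that cuts Relish, at 0.21 (adjusted p = 0.241), the kinase genes Tak1 and IKKbeta at 0.00 (adjusted p = 0.994) and 0.04 (adjusted p = 0.863), and Charon, a partner of Relish, at 0.26 (adjusted p = 0.135). No test was made of whether the Toll and Imd lists differ from each other.

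**Figure D3:**
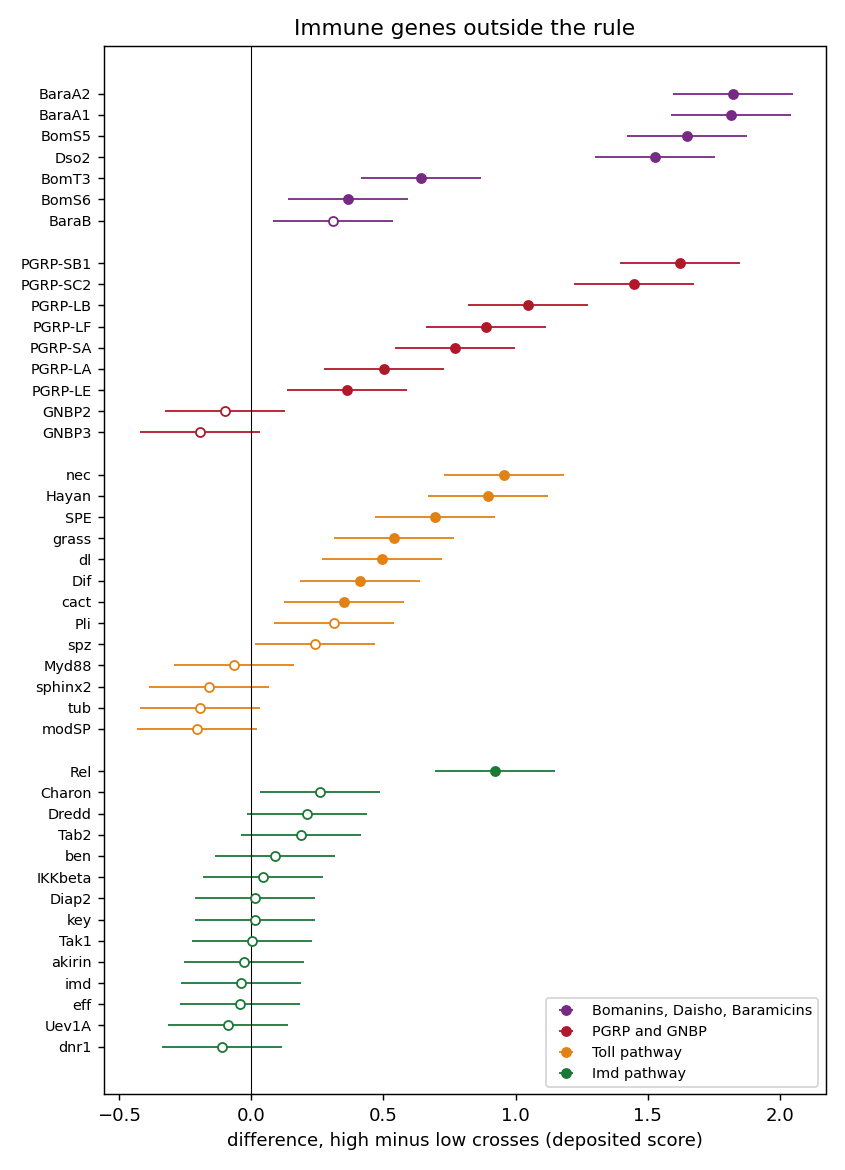
Difference in mean deposited score, high minus low crosses, for the measured genes of 4 immune lists, with 95% intervals as bars, filled points for an adjusted p under 0.05 and open points otherwise. The effector peptides and PGRPs reach 1.82 and 1.62, whereas in the Imd pathway only Rel, at 0.92, passed.

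Other humoral genes also moved. Tsf1 (CG6186, X), the secreted transferrin that takes iron out of the haemolymph, had scores of -1.49, 0.863 and 3.15 (lowest, median, highest) in high crosses, against -3.15, -0.663 and 1.76 in low crosses, with 96.6% of high crosses above the low median. The difference was 1.57 (adjusted p = 1.82e-38). In the iron list of 8 measured genes, 3 were higher (37.5%, beside 6.67% of all genes) and 1 was lower (12.5%, beside 5.97%). Besides Tsf1, Mvl, a metal ion transporter, was higher by 0.58 (adjusted p = 3.68e-05) and Tsf3 by 0.32 (adjusted p = 0.0489), while the mitochondrial ferritin gene Fer3HCH was lower, by -0.48 (adjusted p = 0.00113). The major ferritin genes Fer1HCH and Fer2LCH, at 0.03 (adjusted p = 0.921) and 0.10 (adjusted p = 0.637), did not pass.

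Of 9 measured thioester protein and melanization genes, 3 were higher (33.3%, beside 6.67% of all genes), 1 was lower (11.1%, beside 5.97%) and 5 did not pass. The thioester protein gene Tep2 differed by 0.77 (adjusted p = 5.28e-09), Spn27A, a serpin that restrains melanization, by 0.74 (adjusted p = 3.23e-08), and yellow-f, an enzyme of melanin synthesis, by 0.58 (adjusted p = 4.64e-05), whereas the prophenoloxidase gene PPO2 was lower, by -0.38 (adjusted p = 0.0163). In the JAK/STAT and stress list, 3 of 9 were higher (33.3%, beside 6.67% of all genes) and the median difference was 0.04, with the calls being the stress peptide gene TotA (0.55, adjusted p = 0.000113), the feedback inhibitor gene Socs36E (0.45, adjusted p = 0.00265) and the receptor gene dome (0.34, adjusted p = 0.0350).

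Several of the 15 genes with the largest positive differences carry only a CG number in the reference table. CG4757 differed by 1.59 (adjusted p = 1.15e-39), with 98.7% of high crosses above the low median, and CG16772 by 1.54 (adjusted p = 5.07e-37), with 97.3%. CG13965 (1.31), CG10337 (1.20), CG42807 (1.13), CG8303 (1.12) and CG18563 (1.11) made up the rest of the 15, with adjusted p between 7.54e-27 and 7.38e-19. Between these 15 genes the pairwise correlations over all 596 crosses had a median of 0.46 (range 0.11 to 0.999), and over the middle crosses a median of 0.25. These are descriptions over crosses from which the genes themselves were picked.

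The 4 largest negative differences were those of genes of fat storage and fat use. AkhR (CG11325, 2L), the receptor for adipokinetic hormone, which mobilises stored fat, had scores of -3.15, -0.804 and 1.87 (lowest, median, highest) in high crosses, against -1.61, 0.329 and 3.15 in low crosses. The difference was -1.01 (adjusted p = 1.80e-15), with 17.4% of high crosses above the low median. Lsd-2, a perilipin that coats lipid droplets and protects them from lipases, had medians of -0.647 in high crosses and 0.347 in low crosses, a difference of -0.97 (adjusted p = 2.34e-14). Jabba, which anchors histones on lipid droplets, had medians of -0.529 in high crosses and 0.364 in low crosses, a difference of -0.95 (adjusted p = 7.36e-14). Lsd-1, the other perilipin, had medians of -0.418 in high crosses and 0.395 in low crosses, a difference of -0.86 (adjusted p = 2.88e-11).

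Between these 4 genes the median pairwise correlation was 0.57 over all crosses and 0.47 over the middle crosses. This is a description only, since the genes were picked for their differences in these same crosses. Since each sample is a pool of heads, fewer fat body cells and less of these transcripts per cell cannot be told apart. Mcad, an enzyme of fatty acid oxidation, was lower by -0.82 (adjusted p = 3.49e-10) and FASN1, the fatty acid synthase gene, by -0.65 (adjusted p = 2.79e-06). The rest of the 15 largest negative differences, between -0.85 and -0.70, were CG4822, CG18135, CG5023, phu, CG4950, Acer, Orct, Cyp12b2, CG5167 and CG1648.

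The lists of fat storage, fatty acid oxidation and glycogen genes were drawn up after these values were seen and are given as a description only. Of 19 measured fat storage genes, 10 were lower and 1, Agpat1, was higher, with a median difference of -0.39, beside backgrounds of 5.97% lower and 6.67% higher. Besides those named, ATPCL (-0.69), Acsl (-0.58), Seipin (-0.57), mdy (-0.46) and Lpin (-0.39) were lower, while the triglyceride lipase gene bmm was at 0.28 and did not pass (adjusted p = 0.0992). Of 9 fatty acid oxidation genes, 5 were lower and none was higher, with scu at -0.68 and the trifunctional protein genes Mtpbeta and Mtpalpha at -0.47 and -0.41. Of 9 glycogen and trehalose genes, 3 were lower and none was higher, led by the glycogen-targeting subunit genes Gbs-76A (-0.70) and Gbs-70E (-0.56) and by Tps1 (-0.50), the trehalose synthesis gene.

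The fat body marker list, in which storage, secretory and fat genes are mixed, did not move as 1 block. Of its 13 measured genes 5 were lower (AkhR, Lsd-1, FASN1, mdy and Yp2, 38.5% beside 5.97% of all genes), 1 was higher and 7 did not pass. The gene that was higher was Mtp, which loads lipid onto lipoproteins (0.50, adjusted p = 0.000645), and the lipoprotein gene apolpp was at 0.00 (adjusted p = 0.9998). The yolk protein gene Yp2 was at -0.33 (adjusted p = 0.0439), and Yp1 and Yp3 were at -0.04 (adjusted p = 0.875) and -0.13 (adjusted p = 0.526).

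A set of genes for protein entry into the endoplasmic reticulum and folding there, was likewise listed after the values were seen and is a description only. Of 39 measured genes 20 were higher (51.3%, beside 6.67% of all genes) and none was lower (beside 5.97%), with a median difference of 0.32 beside -0.02 over all genes. The chaperone gene Gp93 had medians of 0.622 in high crosses and -0.221 in low crosses, a difference of 0.84 (adjusted p = 1.22e-10). Others were the disulfide isomerase CaBP1 (0.79), the cochaperone P58IPK (0.75), the signal recognition particle receptor subunit SrpRalpha (0.74), the translocon protein TRAM (0.72), the BiP gene Hsc70-3 (0.62) and the translocon subunits Sec61beta (0.56) and Sec61alpha (0.54), with adjusted p between 2.48e-09 and 0.000183.

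The stress sensor gene Ire1 and its target Xbp1 were at -0.30 (adjusted p = 0.0750) and -0.25 (adjusted p = 0.159) and did not pass. The 9 measured heat shock genes held no call in either direction, beside 6.67% higher and 5.97% lower of all genes. At those shares a list of this size would hold few calls or none. CrebA, a transcription factor for secretory pathway genes, was named after its value was seen and differed by 0.61 (adjusted p = 1.10e-05). Ilp6, an insulin-like peptide gene of the fat body, and the insulin receptor gene InR were higher by 0.48 (adjusted p = 0.00116) and 0.43 (adjusted p = 0.00515), and the other 9 of the 11 measured genes of the insulin list did not pass, so that 18.2% of the list was higher beside 6.67% of all genes.

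Markers of other cells were compared in the same fit. Of 9 measured haemocyte markers 2 were lower, the phagocytosis receptor gene NimC1 (-0.58, adjusted p = 3.60e-05) and the peroxidasin gene Pxn (-0.37, adjusted p = 0.0190), and 1 was higher, srp (0.45, adjusted p = 0.00299), a GATA factor of both haemocytes and fat body. The median over the 9 was -0.15, and 22.2% were lower beside 5.97% of all genes. None of 9 gut markers and none of 11 neuronal markers passed in limma, beside 6.67% higher and 5.97% lower of all genes. At those shares, lists of this size would hold few calls or none. Of all 11062 transcripts, 2778 had an unadjusted limma p under 0.05. Muscle markers had 5 of 16 higher (Zasp52, Mlc1, Act57B, Tm1 and Tm2, between 0.34 and 0.55), photoreceptor markers 1 of 8 (Rh3, 0.34), glial markers 1 of 6 (bdl, 0.42) and ribosomal protein genes 1 of 18 (RpL3, 0.45). Beside the 6.67% of all genes that were higher, these shares were 31.2% for muscle, 12.5% for photoreceptor, 16.7% for glial and 5.56% for ribosomal genes, the last 3 resting on 1 gene each. Zasp52, Tm1, Tm2 and Mlc1 have 14, 17, 5 and 2 transcript rows, of which the row with the smallest p stands for the gene. Mf and wupA, with 15 and 13 rows, did not pass. No ovary marker has a row. The part of these marker shifts in the immune and fat gene differences was not tested.

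Values of the middle crosses, which belong to neither group, show how far the pattern reaches inside the bulk of the crosses. BaraA2 had means of -0.836, -0.306, 0.186 and 0.985 in the 4 equal bins of crosses from the lowest to the highest Drs and DptB mean, with standard errors of 0.0559 to 0.0651. The means of BomS5 were -0.735, -0.366, 0.203 and 0.912 and those of Tsf1 -0.666, -0.415, 0.210 and 0.901. For these genes each bin stood above the one before it. AkhR had means of 0.356, 0.227, 0.0535 and -0.650 and Lsd-2 of 0.364, 0.108, 0.140 and -0.607 (standard errors 0.0705 to 0.0833), so that for these genes most of the distance lay between the third bin and the highest. Jabba, at 0.402, 0.193, -0.0347 and -0.551, was lower in each bin than in the one before it, and Dso2, at -0.587, -0.426, 0.100 and 0.941, had its largest step at the top as well. Gp93, at -0.248, -0.264, -0.0624 and 0.591, also had its largest step there. So did BaraA2, BomS5, Tsf1 and Jabba. The bins are equal in number of crosses but not in range. The highest bin spans 0.663 to 3.15 in the Drs and DptB mean, and the middle bins together span -0.635 to 0.660. No test compared these shapes.

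**Figure D4:**
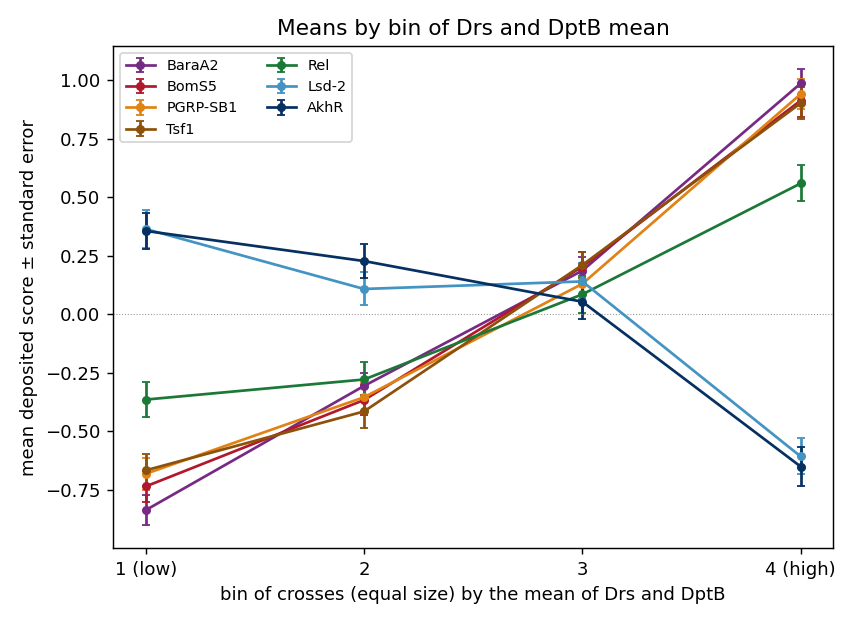
Mean deposited score with its standard error in 4 equal bins of crosses ordered by the mean of Drs and DptB, for 7 genes outside the choice rule. BaraA2 is at -0.836, -0.306, 0.186 and 0.985 from the lowest to the highest bin, and AkhR is lowest in the highest bin, at -0.650.

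A regression on the Drs and DptB mean within the middle crosses called 23 transcripts (0.208%), which belong to 18 genes and of which 20 rise with the mean. The steepest were Tsf1, at 1.01 (SE 0.161, adjusted p = 3.80e-06), Dso2, at 0.91 (adjusted p = 8.14e-05), and BomS5, at 0.90 (adjusted p = 8.80e-05), each in score per unit of the mean. CG4757, PGRP-SB1, BaraA2, BaraA1, the serpin gene Spn88Eb, CG16772, PGRP-LF, PGRP-LB and PGRP-SC2 were also among them. AkhR, at -0.34 (adjusted p = 0.5), Lsd-2, at -0.10 (adjusted p = 0.913), and Jabba, at -0.52 (adjusted p = 0.184), did not pass in these crosses, and neither did Rel, at 0.48 (adjusted p = 0.230). Of the 83 genes lower by at least 0.5 between high and low crosses, none passed in the middle crosses, and 68 had a slope of the same sign there (81.9%). Of the genes higher by at least 0.5, 15 passed (10.6%) and 80.9% had a slope of the same sign. The share of all genes with a slope of the same sign was not counted, so these sign shares have no background beside them. The middle crosses span a range of the mean from -0.635 to 0.660, narrower than that of the groups.

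Because the choice used 1 gene of each pathway, Drs and DptB were also fitted together over all 596 crosses. The slope on DptB at given Drs passed for 1221 transcripts (11%), and the slope on Drs at given DptB for 59 (0.533%). Both slopes are in score per score with a standard error of about 0.055. The slopes themselves differed in 3.15% of transcripts, with the slope on DptB the larger in absolute size in 85.1% of these and that on Drs in 14.9%. This fit includes the crosses that made the groups and is no separate evidence for the differences above.

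PGRP-SB1 had a slope of 0.09 on Drs and 0.63 on DptB (adjusted p of the difference 0.00018). PGRP-LB had 0.00 on Drs and 0.49 on DptB (adjusted p of the difference 0.00081), and Rel -0.01 on Drs and 0.42 on DptB (adjusted p of the difference 0.00430). Other genes of these lists did not separate in this way, with PGRP-SC2 at 0.31 on both (adjusted p of the difference 0.987) and PGRP-LF at 0.15 on Drs and 0.28 on DptB (adjusted p of the difference 0.539). Of the 9 measured PGRP and GNBP genes, PGRP-SB1 and PGRP-LB were those whose slopes differed. The Toll inhibitor gene cact had -0.08 on Drs and 0.29 on DptB (adjusted p of the difference 0.0196). CG10337, CG42807 and CG8303 behaved likewise, with slopes of 0.04 to 0.06 on Drs and 0.47 on DptB. Among the 15 genes with the largest positive differences, CG4757 was the one whose slopes differed with that on Drs the larger, with 0.55 on Drs and 0.14 on DptB (adjusted p of the difference 0.00583).

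For several secreted proteins the slopes did not differ past the threshold. BomS5 had slopes of 0.46 on Drs and 0.27 on DptB, with an adjusted p of the difference of 0.275. Dso2 had 0.28 on Drs and 0.42 on DptB (adjusted p = 0.481), Tsf1 0.37 and 0.34 (adjusted p = 0.911), and BaraA2 0.25 and 0.53 (adjusted p = 0.0899). Drsl5 had 0.19 on Drs and -0.14 on DptB (adjusted p of the difference 0.0385), and imd 0.18 and -0.17 (adjusted p of the difference 0.0290). Of these 4 slopes, that of imd on DptB passed on its own (adjusted p = 0.0249), and the others had adjusted p between 0.0674 and 0.0962.

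Of the 4 fat genes with the largest differences, 2 had slopes that differed. Jabba had slopes of -0.00 on Drs and -0.42 on DptB (adjusted p of the difference 0.00513) and Lsd-1 -0.02 and -0.34 (adjusted p of the difference 0.0489), while for AkhR, at -0.07 and -0.37, and Lsd-2, at -0.13 and -0.27, the slopes did not differ past the threshold (adjusted p = 0.0766 and 0.485). Picked after the values were seen, the purine synthesis gene Prat had -0.18 on Drs, which did not pass on its own (adjusted p = 0.0916), and 0.32 on DptB.

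**Figure D5:**
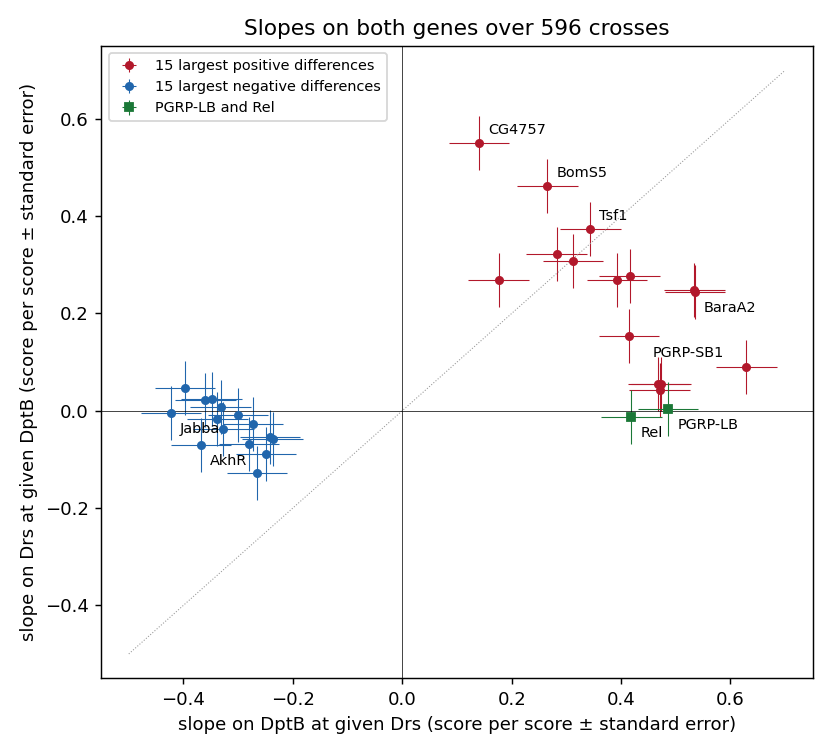
Slopes on DptB (horizontal) and on Drs (vertical) from a joint regression over 596 crosses, in score per score with standard errors, for the 15 genes with the largest positive (red) and the 15 with the largest negative (blue) differences, and for PGRP-LB and Rel (green). PGRP-SB1 lies at 0.63 on DptB and 0.09 on Drs, and CG4757 at 0.14 on DptB and 0.55 on Drs.

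The same contrast was made within each type of cross, whose crosses are separate samples. The genes were picked in the contrast over both types together, so neither type is separate evidence for them. Every gene higher by at least 0.5 there (1.90% of genes) passed in pA1 by pB2 alone. Of these, 28 passed in pA2 by pB1 alone. Of the 83 genes lower by at least 0.5, 81 passed in pA1 by pB2 alone and 10 in pA2 by pB1 alone. Over all 11062 transcripts, 9.06% passed in pA1 by pB2 alone and 0.533% in pA2 by pB1 alone. All of these higher and lower genes kept their sign in both types. In pA1 by pB2 alone, with 94 crosses in each group, BaraA2 differed by 1.94, BomS5 by 1.56, PGRP-SB1 by 1.84 and Tsf1 by 1.69. In pA2 by pB1 alone, with 54 crosses in each group, these genes differed by 1.62, 1.84, 1.27 and 1.41, all with adjusted p of 3.98e-09 or less. The fat genes differed by -1.27 (AkhR), -1.07 (Lsd-2), -1.10 (Jabba) and -0.78 (Lsd-1) in pA1 by pB2, and by -0.55 (adjusted p = 0.150), -0.86 (adjusted p = 0.00391), -0.71 (adjusted p = 0.0469) and -0.93 (adjusted p = 0.000782) in pA2 by pB1. Among the genes called only in pA1 by pB2 were nec (1.21, against 0.50 in pA2 by pB1 with adjusted p = 0.193) and BomT3 (0.88, against 0.23 with adjusted p = 0.658), but for both the interaction did not pass.

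The interaction of group with type of cross was fitted in the groups chosen over both types. It passed for 3 of 11062 transcripts (0.0271%), while 972 had an unadjusted p under 0.05. One was PGRP-SA (CG11709, X), with an interaction of 1.07 (SE 0.239, adjusted p = 0.0279). In the groups chosen within each type, it differed by 1.17 (adjusted p = 2.89e-12) in pA1 by pB2 but by 0.13 (adjusted p = 0.823) in pA2 by pB1. The other transcripts that passed were those of CG6675 and CG11655. In the groups chosen within each type, CG6675 was at 1.02 among pA1 by pB2 crosses and 0.04 among pA2 by pB1 crosses. CG11655 was at -0.58 among pA1 by pB2 crosses and 0.62 among pA2 by pB1 crosses.

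The called genes were spread over the genome. On the major arms the share of genes called in either direction was 13.3% on 2L, 11.1% on 2R, 11.7% on 3L, 14.6% on 3R and 12.5% on X. Of the 20 measured genes nearest to Drs in gene order, 10 on each side, none was called by limma, the largest being kst at 0.28 (adjusted p = 0.101). Of the 20 nearest to DptB, 4 were called, ena at -0.45 (adjusted p = 0.00260), CG15083 at -0.38 (adjusted p = 0.0174), CG15111 at 0.36 (adjusted p = 0.0233) and 5-HT1B at 0.34 (adjusted p = 0.0395).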

How the data were processed

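RNA of pooled female heads from 596 crosses was hybridised to NimbleGen arrays. Per the paper's methods, the authors corrected background, normalized and summarised probes with oligo (RMA), left out probes with several variants or with 1 variant that affected the measurement, and averaged isoforms that correlated closely. The authors deposited, per transcript, a normal-quantile score left after subpopulation and 10 principal components were fitted. Signal over background and slide are not kept, and the number of arrays limits the precision. There are 11064 transcripts of 7422 genes, of which 7349 genes matched a symbol in the RefSeq gene table, and 2056 further transcripts repeat the values of another. Positions were used only as chromosome arm and gene order.

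The labels put 378 crosses in pA1 by pB2 and the other 218 in pA2 by pB1. The 149 high and 149 low crosses, with 298 between them, were compared with limma 3.58.1 in R 4.3.3 (lmFit, eBayes), with Benjamini-Hochberg adjustment over the 11062 transcripts outside the choice rule and a threshold of 0.05. Scripts were first tested on generated data. Further fits chose crosses by Drs or by DptB alone (60 per group as an alternative), added the interaction with type of cross, regressed on the mean in the middle crosses, and regressed on both genes jointly. A gene is represented by its transcript with the smallest p. Named genes were the 15 largest differences on each side, the measured peptide and PGRP genes, core pathway members, and the 3 largest of each other list, with others named where said. Members and lists were chosen with earlier results of these data known. Cross numbers follow the order of the samples and pair nothing. Alternatives changed the group size, the score, covariates, blocks of 12 crosses in order, 10 further components and the test. The score followed the median of all other transcripts with r = -0.05 over the crosses, and the highest correlation between any 2 crosses was 0.535, so no library was found repeated. Python 3.11.15, numpy 2.4.6, pandas 2.3.3 and matplotlib 3.10.9 were used besides.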

Additional observations from a re-analysis of the deposited data

Results flagged for a closer look

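The difference of PGRP-SA between high and low crosses was itself different between the types of cross. In the groups chosen over both types, it was larger in pA1 by pB2 than in pA2 by pB1 by 1.073 (SE 0.239, limma interaction, adjusted p = 0.0279). Groups chosen within each type gave 1.17 in the first type of cross and 0.13 in the other. Among the genes named by rule, PGRP-SA was the only one whose interaction passed.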

How the results depend on the processing

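The limits are that every value is a rank-based residual with 1 measurement per cross, that the groups rest on 2 peptide genes, and that no label gives processing order. Deposited order follows maternal line number and is not known to be processing order. In that order, neighbouring crosses correlated in the Drs and DptB mean at 0.108 for pA1 by pB2 and 0.0593 for pA2 by pB1. Changes of background correction, normalization, dim-probe filter and slide block were not run, because they need values from before the authors' corrections. No paired analysis was possible because cross numbers only follow the order of the samples and pair no high cross with a low cross. With 2 genes the first principal component is their mean, so it gives the same groups. Alternatives on the middle crosses, without extreme crosses and with both genes jointly were chosen after seeing the data.

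Against 10.7% of transcripts called (5.70% higher, 5.02% lower), the share was 6.5% (3.41% and 3.09%) with all crosses split at the middle, 6.17% (3.14% and 3.04%) with crosses chosen by Drs alone, 0.533% (0.334% and 0.199%) with pA2 by pB1 alone, 5.81% (3.06% and 2.75%) with blocks of 12 crosses, 2.84% (1.97% and 0.868%) with 10 further components removed and 0.208% (0.181% and 0.0271%) in the middle crosses. Without the 10 crosses of highest mean, 3.31% were lower. The causes of these changes were not tested. With pA2 by pB1 alone each group held 54 crosses, taken from the crosses of that type only. The 60 highest and 60 lowest crosses of both types, which called 9.38%, were a smaller share of a larger set of crosses. They were thus cut further out in the range of the mean, so the settings differ in more than group size. The part of group size in the share called was not tested. The middle crosses span a narrower range of the mean. The remaining settings stayed within 1.5 times of 10.7%. For the gene lists, the median moved to -0.343 for gut and -0.248 for neuronal markers with 60 crosses per group, and to -0.0795 for photoreceptor markers with pA2 by pB1 alone. Both left-out peptide differences kept their call with 60 crosses per group, at 2.27 for Drs and 2.15 for DptB.

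For 98 named genes under 17 settings, 86.3% of values kept direction and call, 10.2% lost the call, 1.38% gained one and 2.16% turned sign. The settings were unlike. All 98 kept both with the first principal component, which gives the same groups, and with subpopulation as covariate, which the authors had already fitted. In the middle crosses 35 kept both and 51 lost the call. With pA2 by pB1 alone 50 kept both and 43 lost the call, and with 10 components removed 69 and 22. The sign turned for imd at 0.123 (60 per group), 0.0175 (split at the middle), 0.00529 (regression on all crosses), 0.161 (Drs alone), 0.0393 (pA1 by pB2), 0.0683 (10 components), 0.146 (middle crosses) and 0.141 (rank-sum test). With pA2 by pB1 alone it turned for Drsl5 (-0.0790), spz (-0.00497), Charon (-0.0300), norpA (-0.111) and Rh4 (-0.0482), and with pA1 by pB2 alone for elav (0.0888). In the middle crosses it turned for GNBP2 (0.0310), GNBP3 (0.0453), dome (-0.132), Spn27A (-0.0146), InR (-0.238), elav (0.0168), nSyb (0.378), norpA (-0.0524), Hsp26 (-0.306), RpL3 (-0.0745) and RpS9 (-0.201). With 10 components removed it turned for elav (0.0232), bdl (-0.0262), Hsp27 (0.0659) and RpS9 (-0.00885). It turned for nSyb (0.0242), Hsp26 (-0.0358) and RpS9 (-0.00482) with the split at the middle, for Hsf (-0.0785) with 60 crosses per group, for gammaTry and deltaTry (0.0281 each) with Drs alone and for Hsp26 (-0.0306) with DptB alone.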

Other observations

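The genes below lie outside the lists and were picked singly after their values were seen, so they stand for no gene group. Higher in high crosses were the serpin genes Spn88Eb (0.86, limma adjusted p = 2.54e-11) and Spn43Ab (0.57, adjusted p = 6.48e-05), fon, a clotting protein gene (0.58, adjusted p = 3.93e-05), and the neprilysin-like gene Nep7 (0.86, adjusted p = 4.01e-11). Higher as well were Manf (0.63, adjusted p = 5.60e-06), Ero1L (0.51, adjusted p = 0.000518), KdelR (0.47, adjusted p = 0.00156) and ergic53 (0.46, adjusted p = 0.00224). So were Myc (0.63, adjusted p = 6.05e-06), Gnmt, a glycine methyltransferase (0.83, adjusted p = 1.86e-10), and Prps, of nucleotide synthesis (0.55, adjusted p = 0.000126). The zinc transporter genes Zip48C and Zip88E both differed by 0.54 (adjusted p = 0.000152 and 0.000184).

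Lower in high crosses were Vago, an antiviral secreted factor (-0.51, adjusted p = 0.000469), and Dcr-2, the Dicer of the antiviral RNA interference pathway (-0.45, adjusted p = 0.00262). Others were Dsk, the drosulfakinin gene, at -0.55 (adjusted p = 0.000138), Nplp4 at -0.45 (adjusted p = 0.00262) and Capa at -0.41 (adjusted p = 0.00764). The adiponectin receptor homologue AdipoR was at -0.53 (adjusted p = 0.000263), SdhB, a subunit of succinate dehydrogenase, at -0.54 (adjusted p = 0.000160), and mTor at -0.44 (adjusted p = 0.00355).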
